A study of Mus musculus with 2 samples.

Results

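The genes described here are 10 heat shock and cytosolic chaperone genes, taken by gene symbol from the values of the array study. They are Hspa1a, Hspa1b, Hspa8, Hsph1, Hsp90aa1, Hsp90ab1, Hspd1, Hspe1, Dnajb1 and Dnaja1. Of these 10 genes, 7 had a probe set named for them, out of 19505 named genes in all, and each was measured by 1 probe set. Hspa8, Hsp90ab1 and Dnaja1 matched no named probe set and were not analysed here. RNA was measured on 1 array of ILC3s from circKcnt2 knockout mice and 1 array of ILC3s from Wild-type littermates. Both genotypes had, per the series' design text, been given dextran sodium sulfate (DSS), which injures the gut epithelium and brings on colitis, and ILC3s were gated as Lin- cells with high CD90 and low CD45. Per the study, the knockout removes intronic sequence needed to form the circular RNA circKcnt2 in mice of C57BL/6 background. The study's methods give an age and a DSS regimen for its colitis experiments in general, and the labels give neither for these arrays, nor the number of mice behind each array.

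Heat shock proteins are chaperones that hold, fold and refold other proteins. HSP70 proteins bind exposed stretches of unfolded clients, J-domain proteins such as DNAJB1 deliver clients and speed up ATP hydrolysis, HSP110 proteins exchange the nucleotide, and HSP90 acts later on kinases, receptors and other near-native clients. HSPD1 and HSPE1 form the chaperonin chamber of mitochondria and are usually listed with the heat shock genes, although they do not work in the cytosol. Many of these genes are induced by heat shock factor 1 (HSF1), which binds heat shock elements, alternating GAA and TTC units in gene promoters. In lymphocytes, heat shock genes are known to be raised by fever-range heat, activation and tissue dissociation.

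The promoter letters of the genes on which the results turn are shown first, because Hsph1 and the mitochondrial pair hold the longest heat shock element matches among these genes and because Hspa1a and Hspa1b are nearly alike. Windows run from 250 bases before to 50 bases after the transcription start and come from RefSeq, build GRCm38.p6. They are printed 5′ to 3′ on the gene's strand. Capitals mark the heat shock element match, which is the run of 3 or more alternating units where there is one and otherwise the 2-unit match (GAANNTTC or TTCNNGAA, each of which reads the same on both strands).
Hsph1, chr5:149636266-149636565, minus strand: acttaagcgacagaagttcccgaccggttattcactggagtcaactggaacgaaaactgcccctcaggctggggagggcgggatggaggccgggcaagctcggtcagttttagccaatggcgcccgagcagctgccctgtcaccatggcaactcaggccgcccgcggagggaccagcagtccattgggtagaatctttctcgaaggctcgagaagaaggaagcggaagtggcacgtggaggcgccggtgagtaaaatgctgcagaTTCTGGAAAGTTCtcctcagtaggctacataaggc
Hspa1a, chr17:34972107-34972406, minus strand: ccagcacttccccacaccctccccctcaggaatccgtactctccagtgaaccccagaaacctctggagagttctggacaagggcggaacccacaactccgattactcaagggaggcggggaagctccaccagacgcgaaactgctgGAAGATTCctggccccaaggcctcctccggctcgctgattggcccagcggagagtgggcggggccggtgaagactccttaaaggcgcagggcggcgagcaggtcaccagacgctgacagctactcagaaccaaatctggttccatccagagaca
Hspa1b, chr17:34959189-34959488, minus strand: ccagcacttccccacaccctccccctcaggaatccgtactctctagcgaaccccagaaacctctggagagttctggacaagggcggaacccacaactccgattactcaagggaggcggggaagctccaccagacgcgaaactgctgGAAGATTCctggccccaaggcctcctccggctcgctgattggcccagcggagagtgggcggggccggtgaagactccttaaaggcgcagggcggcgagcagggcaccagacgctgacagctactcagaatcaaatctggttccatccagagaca
Hspe1, chr1:55087898-55088197, plus strand: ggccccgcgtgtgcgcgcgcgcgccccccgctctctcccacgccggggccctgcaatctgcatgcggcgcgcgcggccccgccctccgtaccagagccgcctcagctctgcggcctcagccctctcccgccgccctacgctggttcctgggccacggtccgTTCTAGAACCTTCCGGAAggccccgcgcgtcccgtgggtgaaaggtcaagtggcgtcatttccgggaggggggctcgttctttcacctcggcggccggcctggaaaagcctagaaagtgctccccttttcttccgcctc

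Of the 10 genes, 7 had a promoter window in the RefSeq table. These 7 are not the 7 measured genes, since they include Dnaja1, which had no named probe set, and leave out Hsp90aa1. A run of 3 units was found in a window of 3 of them, Hsph1, Hspd1 and Hspe1, against 0.662% of all 27025 genes (0.603% of 32851 windows). A 2-unit match was found in 6 of the 7, against 17.0% of all genes (15.1% of windows). Each 3-unit run also holds 2-unit matches. Dnajb1 held neither in its windows, which says only that these exact letters are absent there. The same limit holds for the other genes, Hspa1a and Hspa1b included, since units with a mismatch were not searched for. The Hspa1a and Hspa1b windows differed at 4 of 300 bases, and each held 1 match, at -104 to -97 from the start. Hspd1 and Hspe1 lie head to head, so that 1 window of Hspd1 shared 285 bases with that of Hspe1 on the opposite strand and both read the same element. In Hsph1 the 3-unit run lay 16 to 28 bases after the start of the printed window. A separate 2-unit match of Hsph1, not in capitals above, lay before that start, at -54 to -47. A second Hsph1 start listed by RefSeq puts the 3-unit run at 37 to 49 and the separate match at -33 to -26. CCAAT, a common promoter motif searched on both strands, was in windows of 6 of the 7 genes and of 41.1% of all genes (37.4% of windows). TATAAA was in none of the 7 and in windows of 15.7% of all genes (13.6% of windows).

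**Figure D1:**
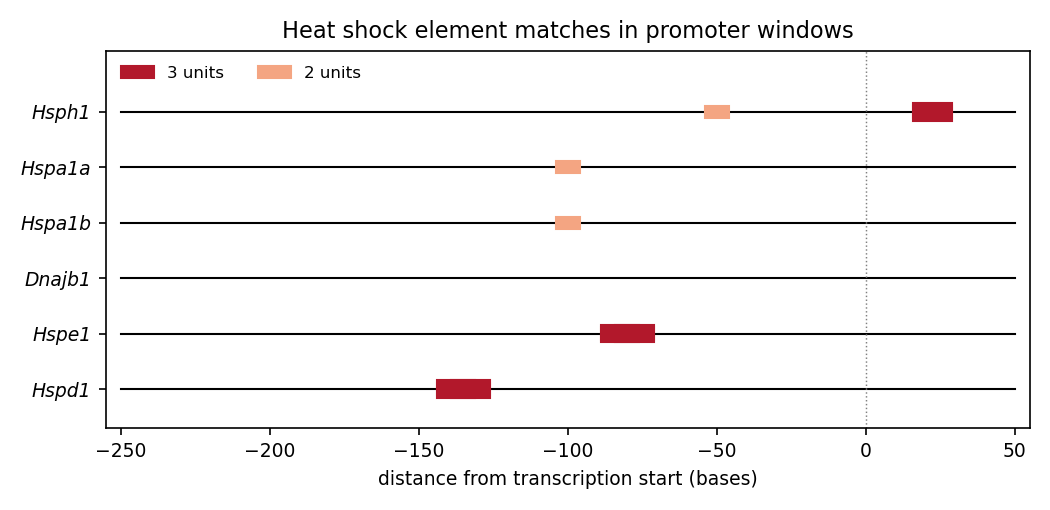
Heat shock element matches in promoter windows of 6 genes, by distance in bases from the transcription start. Dark boxes are runs of 3 or more alternating units and light boxes are 2-unit matches. Hsph1 (16 to 28 after the start), Hspe1 and Hspd1 hold the longer runs. Hsph1 also holds a separate 2-unit match at -54 to -47. Hspa1a and Hspa1b hold 1 shorter match at the same place, and Dnajb1 holds none. Only exact letters were searched, so units with a mismatch are not shown.

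All values are log2 levels made by the authors, and each difference is circKcnt2-deficient minus WT. There was 1 array per genotype and so no replicate, no test and no error, and precision is limited by that number. In a sorted bulk sample, fewer cells of a type and less RNA per cell cannot be told apart. The host gene Kcnt2 was below the background level of 2.73 on both arrays (1.45 on each). Per the study, the knockout left Kcnt2 mRNA unaffected, so the host gene gives no check of the genotype labels. Of genes the study examined downstream of circKcnt2, Batf was at 10.73 on the circKcnt2-deficient array, against 5.71 on the WT array. Il17a (11.48 on the circKcnt2-deficient array, 4.38 on the WT array) and Il17f (11.21 on the circKcnt2-deficient array, 3.90 on the WT array) were also higher. The Y-linked genes Uty, Kdm5d and Eif2s3y did not reach background on the circKcnt2-deficient array but did on the WT array. Each was thus at least 3.74-fold lower. By these genes, the WT array held RNA of male cells and the circKcnt2-deficient array showed none above background. Sex and genotype thus differed together between the arrays, and their parts in any difference given here cannot be told apart. The T cell markers on the array were all above background (13 of 13, at 6.35 to 10.16 on the circKcnt2-deficient array and 5.89 to 9.98 on the WT array). Of the ILC3 markers, 10 of 14 were above background, and Ncr1, Il23r, Il1r1 and Ccr6 were below it on both arrays. The median level of these 14 was 3.71 on the circKcnt2-deficient array and 3.64 on the WT array. That of the 13 T cell markers was 8.85 on the circKcnt2-deficient array and 8.82 on the WT array, although the gate was Lin-. Levels of different genes depend on their probes, and which cells gave these levels was not tested. The part of these marker levels in the values that follow was not tested. Of the named genes, 12502 (64.1%) reached background on at least 1 array, and all 7 heat shock and chaperone genes did so on both.

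The 7 genes did not all differ in 1 direction. Hsph1, Hspa1a, Hspa1b and Dnajb1 were lower on the circKcnt2-deficient array, and Hsp90aa1, Hspd1 and Hspe1 lay within 0.15 of the WT array. Hsph1, at 1.68-fold lower, was the 1 gene past 1.5-fold, where 5.22% of the 12502 genes above background were that much lower. None of the 7 was 1.5-fold higher, against 7.66% of all genes. With a smaller threshold, a log2 difference of -0.32 or less, 3 of the 7 (Hsph1, Hspa1a and Hspa1b) were lower, against 16.1% of all genes. At 2-fold none was lower, against 0.512%. By sign alone 4 of the 7 were lower, where 43.5% of all genes were. The median difference of the 7 was -0.27, beside 0.06 over all genes above background and 0.14 over the 3126 genes with a mean level of 5.93 or more. With background set at the highest control probe set of matched GC content (5.91), Hspa1a and Hspa1b dropped out and the median of the remaining 5 was 0.08.

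**Figure D2:**
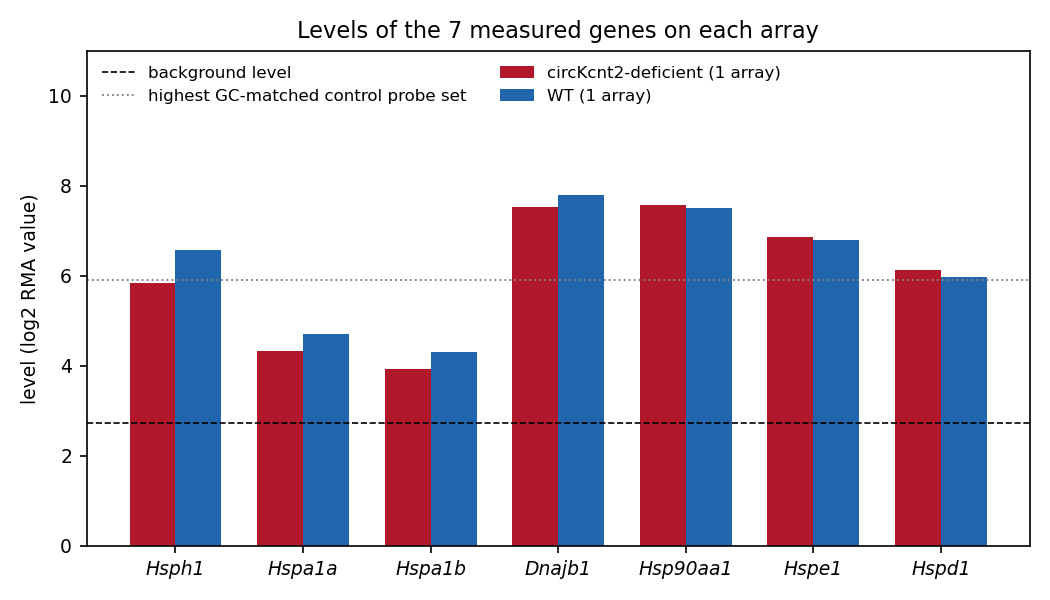
Log2 RMA level of the 7 measured genes on the circKcnt2-deficient array (red) and the WT array (blue), 1 array each and so without error bars, ordered from the lowest to the highest difference. The dashed line is the background level of 2.73 and the dotted line the highest GC-matched control at 5.91. The height of a bar depends on the probes of that gene, so bars are comparable within a gene and not between genes.

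Hsph1 encodes HSP110 (also HSP105), the nucleotide exchange factor that resets HSP70 and helps it to pull apart protein aggregates. Its level was 5.83 on the circKcnt2-deficient array and 6.58 on the WT array (probe set TC0500003660.mm.2), a difference of -0.75. It was the 252nd lowest of 12502 differences. Among the 625 genes of like level, the middle 95% of differences ran from -0.43 to 0.69, and Hsph1 lay below this range. Few well expressed genes were that much lower. Of the 3126 genes with a mean level of 5.93 or more, which include 5 of the 7, 21 (0.672%) were lower by 1.5-fold or more, against 120 (3.84%) that were higher by as much. Hsph1 ranked 9 from the lowest among those 21. On the circKcnt2-deficient array it was just below the highest GC-matched control.

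Hspa1a and Hspa1b encode the inducible HSP70, nearly absent from many resting cells and made in quantity after heat. Hspa1a was at 4.33 on the circKcnt2-deficient array and 4.71 on the WT array (probe set TC1700001936.mm.2), 1.29-fold lower. Hspa1b was at 3.93 on the circKcnt2-deficient array and 4.31 on the WT array (probe set TC1700001935.mm.2), also 1.29-fold lower. The 2 genes are near-identical neighbours, so their probe sets may read each other's RNA, which was not tested, and their equal differences of -0.37 may not be independent. Both lay inside the middle 95% of genes of like level, which ran from -0.58 to 0.87 for Hspa1a and from -0.73 to 0.84 for Hspa1b. Of all genes above background, 13.3% had lower differences than either. All 4 values were above the background level but below the highest GC-matched control.

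Dnajb1 encodes the J-domain protein known as HSP40, the main partner that brings clients to inducible HSP70. Its level was 7.52 on the circKcnt2-deficient array and 7.79 on the WT array (probe set TC0800000929.mm.2), 1.20-fold lower. The difference of -0.27 stood at the edge of the like-level range of -0.28 to 0.66. Differences were narrower among well expressed genes, so a difference of this size placed Dnajb1 nearer to the low end of its own level than Hspa1a and Hspa1b were.

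Hsp90aa1 encodes the inducible form of cytosolic HSP90, which keeps kinases and steroid receptors in a ready state. It was at 7.58 on the circKcnt2-deficient array and 7.50 on the WT array (probe set TC1200002389.mm.2). The difference of 0.08 lay near the like-level median of 0.13. It turned to -0.06 after loess correction and -0.03 after quantile normalization, so it has no settled sign. The gap between the differences of Hsph1 and Hsp90aa1 was -0.84.

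Hspd1 encodes HSP60, which forms the mitochondrial folding chamber, and Hspe1 encodes HSP10, its lid. Hspd1 was at 6.13 on the circKcnt2-deficient array and 5.98 on the WT array (probe set TC0100002354.mm.2), a difference of 0.15. Hspe1 was at 6.87 on the circKcnt2-deficient array and 6.79 on the WT array (probe set TC0100000395.mm.2), a difference of 0.08. The pair, which shares the promoter element printed above, thus had differences 0.06 apart, and genes of their levels had a median of 0.15. The difference of Hspd1 was 0.01 after quantile normalization and -0.00 after loess correction, so it did not outlast either setting. That of Hspe1 turned to -0.07 after loess correction and -0.06 after quantile normalization.

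**Figure D3:**
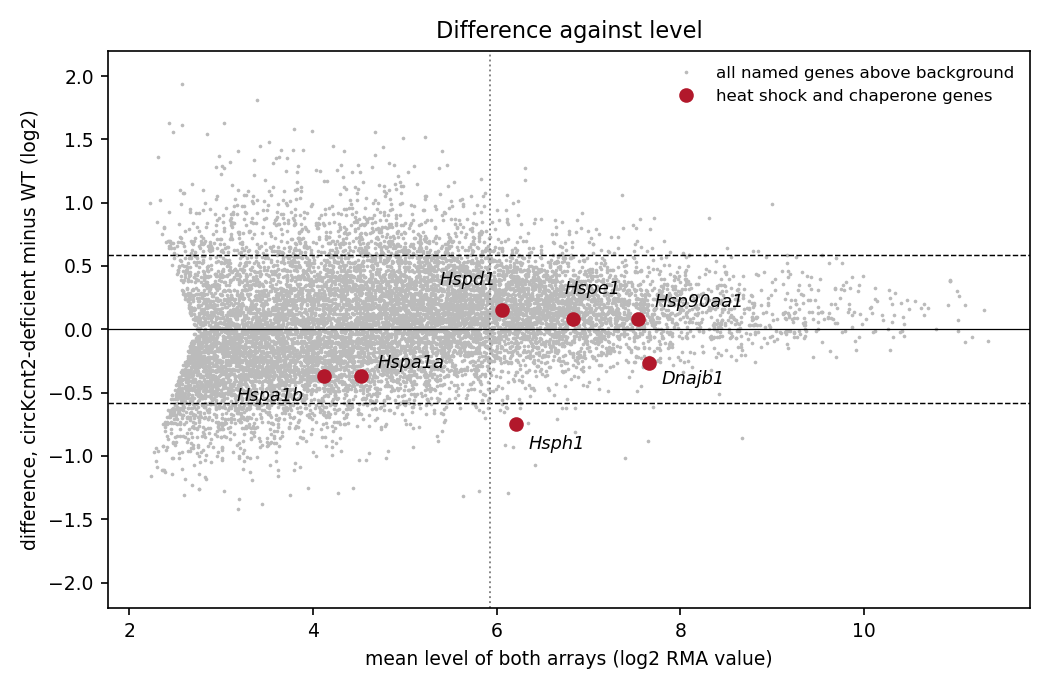
Difference in log2 level (circKcnt2-deficient minus WT) against the mean level of both arrays for named genes above background (grey) and the 7 heat shock and chaperone genes (red). Dashed lines mark 1.5-fold and the dotted line the mean level of 5.93, and 7 genes lie beyond the axis at 2.2. Hsph1 sits at the lower edge of the well expressed genes, and Hsp90aa1, Hspe1 and Hspd1 within the cloud.

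Other targets of HSF1 were compared in the same way. For this list and those below, 5.22% of all genes above background were lower by 1.5-fold or more and 7.66% higher. By sign, 43.5% of all genes had a difference below 0. Of 18 such genes above background, 1 was lower by 1.5-fold or more and none was higher, with 12 of 18 differences below 0 and a median of -0.09. The gene past 1.5-fold was Rgs2, a regulator of G protein signalling that many stimuli induce, at 6.89 on the circKcnt2-deficient array and 7.91 on the WT array. Dnajb4, a close relative of Dnajb1, was at 4.40 on the circKcnt2-deficient array and 4.97 on the WT array. Cryab, a small heat shock protein of muscle and lens, lay under the background level on the circKcnt2-deficient array (2.70, against 3.20 on the WT array), which makes it at least 1.38-fold lower. In the other direction Tcp1, which is also a subunit of the cytosolic chaperonin, was at 6.24 on the circKcnt2-deficient array and 5.69 on the WT array. With background at the highest GC-matched control, 9 of these genes were left and their median was 0.19, so the sign of the list is not settled. Among 58 genes above background with a 3-unit element in a promoter window, 1 was lower by that much, Hsph1 itself (1.72%), and 5 were higher (8.62%), with a median of 0.08. This last comparison was chosen after the values were seen.

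The heat shock factors were next. Of 3 genes of factors and their binding protein above background none reached 1.5-fold, and the median was -0.02. Hsf1, the main regulator, had no named probe set. Hsf2, a partner of HSF1 that is active in development, was at 4.90 on the circKcnt2-deficient array and 4.57 on the WT array. Hsbp1, which encodes a protein that binds the trimer of HSF1, was at 6.46 on the circKcnt2-deficient array and 6.48 on the WT array.

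Relatives of HSP70 and of its J-domain partners followed. Of 6 other HSP70 and HSP110 genes above background none reached 1.5-fold, 5 had differences below 0 and 1 above, and the median was -0.15. Hspa4l, an HSP110 family gene like Hsph1, was at 5.05 on the circKcnt2-deficient array and 5.51 on the WT array. Hspa4, also of that family, was at 7.72 on the circKcnt2-deficient array and 7.81 on the WT array. The gap between the differences of Hsph1 and Hspa4 was -0.67. Hspa9, which encodes the HSP70 of mitochondria, was at 5.36 on the circKcnt2-deficient array and 4.79 on the WT array. Of 20 other J-domain genes, 1 was past 1.5-fold, on the lower side, and the median was 0.06, which turned to -0.04 after loess correction. That gene was Dnaja4, a relative of Dnaja1, at 3.32 on the circKcnt2-deficient array and 4.04 on the WT array. Dnajc7, whose product binds both HSP70 and HSP90, was at 7.0 on the circKcnt2-deficient array and 6.54 on the WT array. The 5 small heat shock protein genes above background had a median of -0.20. With a stricter floor, set at the median level over the named genes, 2 of them were left and the median was 0.19.

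Partners of HSP70 and HSP90, and the chaperones of newly made proteins, were also compared. Of 29 co-chaperone genes of HSP70 and HSP90, 2 were higher by 1.5-fold or more and none was lower, and the median was 0.20. Fkbp5, an HSP90-binding immunophilin induced by glucocorticoids, was at 9.49 on the circKcnt2-deficient array and 8.5 on the WT array, 1.99-fold higher. Sugt1, an adaptor between HSP90 and ubiquitin ligases, was at 6.54 on the circKcnt2-deficient array and 5.95 on the WT array. Of 16 genes of the TRiC chaperonin, which folds actin and tubulin, and of prefoldin, 1 was higher by as much and none was lower, and the median was 0.26. Differences were above 0 for 13 of the 16, with 7 of 7 TRiC subunits and 4 of 6 prefoldin subunits, and below 0 for 3, where 43.5% of all genes were below. The gene past 1.5-fold was Uri1, a prefoldin-like protein, at 7.18 on the circKcnt2-deficient array and 6.40 on the WT array. These lists rest on the same arrays and share some genes with the HSF1 targets, and the difference between the lists was not tested.

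The mitochondrial partners of Hspd1 and Hspe1 were compared in the same way. Of 18 other mitochondrial chaperone and protease genes, 16 had differences above 0 and 2 below, where 43.5% of all genes were below 0. The median was 0.18, beside 0.06 over all genes above background, with 1 gene at least 1.5-fold higher and 1 lower. Spg7, a subunit of an inner membrane protease, was at 3.46 on the circKcnt2-deficient array and under background on the WT array, so at least 1.66-fold higher. Dnajc28, a J-domain gene, was at 3.83 on the circKcnt2-deficient array and 4.59 on the WT array. Dnajc19, a J-domain protein of the import motor, was at 6.06 on the circKcnt2-deficient array and 5.54 on the WT array. The medians of the co-chaperone, TRiC and mitochondrial lists were 0.08, 0.16 and 0.05 after loess correction, which brings the median of all genes above background to 0. The HSF1 target list shares 6 of its 22 genes (27.3%) with the co-chaperone list.

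**Figure D4:**
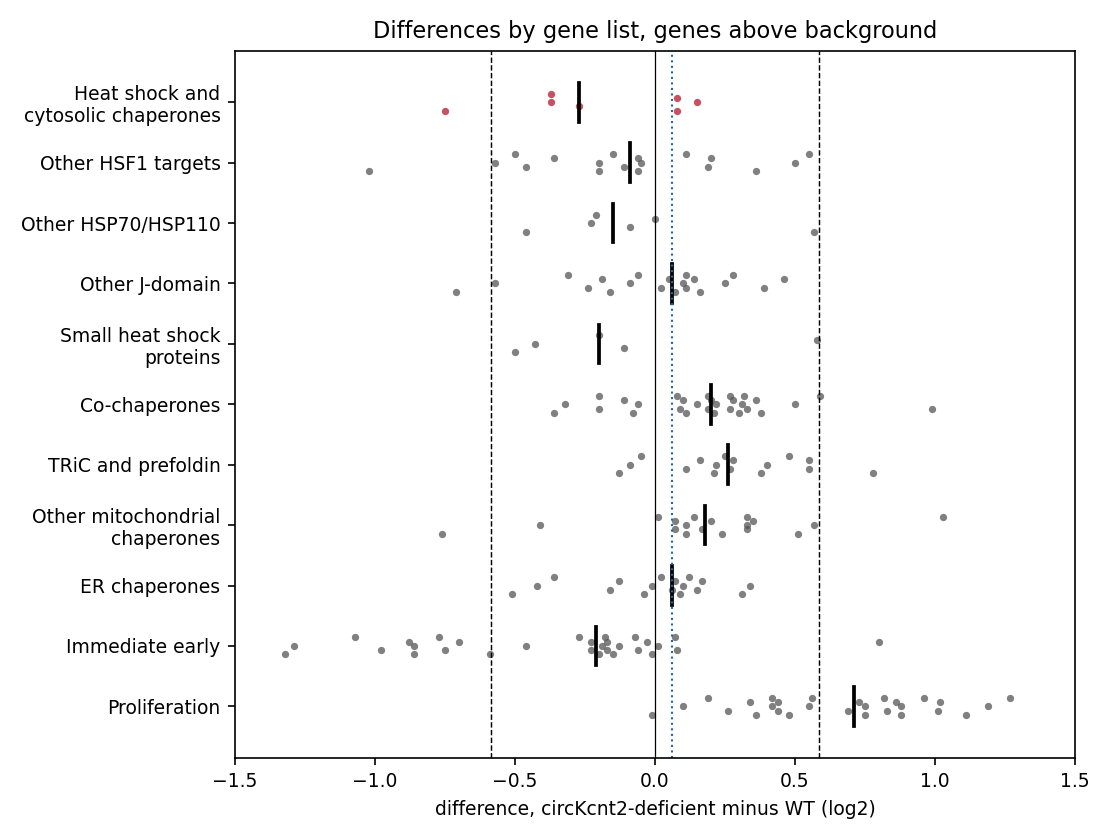
Difference in log2 level (circKcnt2-deficient minus WT) of each gene above background (points) by gene list, with the list median (bar), 1.5-fold (dashed) and the median of all genes at 0.06 (dotted). The heat shock and cytosolic chaperone genes (red) span -0.75 to 0.15, immediate early genes extend furthest to the left and proliferation genes furthest to the right.

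Genes of other programmes differed beside these values. Immediate early genes known from tissue dissociation were all above background (30 of 30), with a median of -0.21. By measured values 11 were lower by 1.5-fold or more, against 5.22% of all genes, and 1 was higher, against 7.66%. Of the 11, Ppp1r15a, named after its value was seen, was under background on the circKcnt2-deficient array, so that only a bound of at least 1.37-fold lower holds for it. Their summed linear level was 3472 on the circKcnt2-deficient array and 4155 on the WT array. Fos, the transcription factor gene with the largest difference in this list, was at 4.97 on the circKcnt2-deficient array and 6.29 on the WT array. Of the 21 well expressed genes past 1.5-fold on the lower side, 5 belonged to this list, which has 16 genes at that level, and 1 was Hsph1. Of 28 proliferation genes above background, 15 were higher by 1.5-fold or more, against 7.66% of all genes. None was lower by as much, and the median was 0.71. Their summed linear level was 3525 on the circKcnt2-deficient array and 2308 on the WT array. Among markers of other cell types, Jchain, a plasma cell gene, was at 4.30 on the circKcnt2-deficient array and 6.72 on the WT array. Other plasma cell genes of the list did not share so large a difference. Xbp1 was at 7.31 on the circKcnt2-deficient array and 7.29 on the WT array. Sdc1 was at 2.84 on the circKcnt2-deficient array and 3.06 on the WT array, and Mzb1 was below background on both. Cd79b, a B cell gene, was at 4.87 on the circKcnt2-deficient array and 3.91 on the WT array, and the median of 6 B and plasma cell markers above background was -0.10. Of 9 macrophage, monocyte and neutrophil markers above background, 3 were lower and 1 higher by 1.5-fold or more by measured values, with a median of -0.30. Of the 3 lower markers, Adgre1 was under background on the circKcnt2-deficient array and has a bound of at least 1.24-fold lower. The summed linear level of all 11 such markers on the array was 188.1 on the circKcnt2-deficient array and 246.2 on the WT array. Ly6c2, which had the highest level of the list on both arrays (6.54 on the circKcnt2-deficient array, 7.16 on the WT array), weighs most in that sum. The part of these programmes and markers in the differences of the heat shock and chaperone genes was not tested.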

How the data were processed

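Total RNA was extracted with Trizol from sorted ILC3s and hybridized to 1 Affymetrix mouse array per genotype. The series' design text and the probe set identifiers point to different Affymetrix designs, so the array model is not settled. The authors deposited log2 levels for each probe set, made per the submitters' processing notes with Affymetrix Power Tools and RMA. Neither version is given in the sources used here. RMA may remove a difference that all genes share. Names came from the platform annotation (19572 of 29129 probe sets had 1 symbol, 0 several), and the 55 genes with several probe sets were given their mean. Background (2.73) was set so that 95% of 1410 olfactory and vomeronasal receptor genes lay below it on both arrays. A gene was kept if it reached that level on either array, and where it did so on 1 array its fold is a bound. Signal relative to background stands in for depth. Genes of like level shared 1 of 20 bins of mean level. Counts used 1.5-fold of the measured values as a rule of size, also for genes whose fold is a bound. Python 3.11.15, numpy 2.4.6, pandas 2.3.3, statsmodels 0.14.6 and matplotlib 3.10.9 were used, and the counting was tested on simulated data.

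The genes named are the members, Kcnt2, Batf, Il17a and Il17f and, from each other list, up to 4 genes above background with the largest absolute difference. The ILC3 markers below background, Hspa4, Xbp1, Sdc1, Mzb1 and Ppp1r15a were named outside this rule, after their values were seen. The members and lists were chosen with earlier results of these data known. Alternatives were no floor, a stricter floor, loess correction (span 0.3), quantile normalization, median subtraction, the highest probe set, 32 added before the logarithm, other thresholds and list means. Added after seeing the data were a background level equal to the top GC-matched control and the raising of low values to background.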

Additional observations from a re-analysis of the deposited data

How the results depend on the processing

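The count of 1 heat shock or chaperone gene at least 1.5-fold lower held under the background, scaling and probe set alternatives. It became 0 with 32 added before the logarithm, which shrinks differences of low values, 3 with a log2 threshold of 0.32 and 0 with a 2-fold threshold. The count at least 1.5-fold higher was 0 under all 11 alternatives tried. The median difference lay between -0.38 (loess correction and quantile normalization) and -0.13 (32 added), except for 0.08 when background was put at 5.91, the top GC-matched control, a setting that left 5 genes and was chosen after seeing the data. Hsph1 ranged from -0.90 to -0.52 and Dnajb1 from -0.41 to -0.23, and both Hspa1a and Hspa1b stayed below 0. Hsp90aa1 and Hspe1 changed sign under loess correction and quantile normalization. No paired analysis was possible because each genotype has 1 array, and for the same reason no array could be left out.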

Other observations

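Chaperones of the endoplasmic reticulum, many of whose genes respond to the unfolded protein response, were also measured. Of 17 such genes above background, none was 1.5-fold higher or lower, and the median was 0.06, equal to that of all genes above background. After loess correction the list's median was -0.09. Canx, which encodes the lectin chaperone calnexin, was at 7.26 on the circKcnt2-deficient array and 6.92 on the WT array. Sil1, the nucleotide exchange factor of the HSP70 of this compartment, was at 4.81 on the circKcnt2-deficient array and 5.32 on the WT array. Dnajb9, a J-domain partner of that HSP70, was at 6.02 on the circKcnt2-deficient array and 6.38 on the WT array. The differences of the list ran from -0.51 to 0.34.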
